A study of Mus musculus with 4 samples.

Results

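Cdkn1a and 9 other genes of the p53 response were followed in mouse hearts in which the kinase GSK-3alpha carries the S21A substitution. The genes were chosen by name as p53-responsive, after the lower Cdkn1a signal in knock-in hearts had been seen in the same comparison, so the differences below are descriptions of these arrays and no independent test. All probe sets with 1 listed gene symbol among Cdkn1a, Trp53, Mdm2, Ccng1, Trp53inp1, Bax, Gadd45a, Sesn1, Phlda3 and Btg2 were taken. They came to 18 of 45037 probe sets tested and covered 8 of the 10 genes. Trp53 and Bax were not analysed here at the transcript level.

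The samples were 2 GSK-3alpha S21A knock-in hearts and 2 wild-type hearts, 1 Affymetrix array each. All mice were of strain C57B6, aged 3.6 months and studied at baseline without treatment. In the knock-in allele alanine replaces serine 21, the residue at which Akt and related kinases inhibit GSK-3alpha. The labels give neither sex nor zygosity, and they do not say whether an array holds 1 animal or a pool, so n counts arrays.

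The transcription factor p53, encoded by Trp53, is held at a low level by the ubiquitin ligase Mdm2, which is itself a p53 target. When DNA damage or other stress releases it, p53 binds paired half-sites near its targets and raises genes of cell cycle arrest, DNA repair, apoptosis and metabolic control. Cdkn1a, which encodes the cyclin-dependent kinase inhibitor p21, is the best known of them, and it also responds to signals that do not pass through p53. Adult cardiomyocytes rarely divide, and p21 is among the inhibitors that restrain their cell cycle.

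The upstream sequences of these genes were searched for letters that p53 recognises. RefSeq promoter windows on GRCm38.p6 were found for 9 of the 10 genes, with 11 start sites in all, and the 250 bases before each start were searched on both strands. Cdkn1a has 2 starts that lie 2790 bases apart. Among these, only the upstream Cdkn1a window held the exact pair of CATG followed after 6 bases by CATG, which 0.49% of all 32851 windows held. The half-site consensus also allows other cores, with A or T at either middle position. Pairs of those were not searched, so the other genes may hold paired half-sites of another spelling. In the Cdkn1a pair only the first CATG lay within a full match to the half-site consensus. The upstream Cdkn1a window is shown whole with the CATG pair in capitals. The downstream window is shown for contrast with its GC boxes (GGGCGG) in capitals.
Cdkn1a upstream start, chr17:29090729-29090978, plus strand: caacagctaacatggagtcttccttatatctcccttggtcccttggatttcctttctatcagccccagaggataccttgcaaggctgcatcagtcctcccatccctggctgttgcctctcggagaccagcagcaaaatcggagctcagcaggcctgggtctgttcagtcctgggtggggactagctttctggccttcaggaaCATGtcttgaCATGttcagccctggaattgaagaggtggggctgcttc
Cdkn1a downstream start, chr17:29093519-29093768, plus strand: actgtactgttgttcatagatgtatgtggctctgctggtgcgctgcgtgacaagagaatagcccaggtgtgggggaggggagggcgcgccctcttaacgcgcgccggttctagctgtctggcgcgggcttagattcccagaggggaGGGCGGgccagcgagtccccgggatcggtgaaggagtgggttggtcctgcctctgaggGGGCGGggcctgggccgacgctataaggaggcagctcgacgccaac

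Matches to the p53 half-site consensus occurred in 7 of the 11 windows, against 7.13% of all windows, and GC boxes in 8 of 11, against 32.7% of all windows. The upstream Cdkn1a window held 2 half-site matches, at 73 to 64 and at 51 to 42 bases before the start. The half-site matches of the other genes are shown with 5 flanking bases on each side and the match in capitals. A match is a description of letters, and p53 binding was not measured here.
Mdm2, chr10:117710930-117710949, minus strand: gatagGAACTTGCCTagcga
Ccng1, chr11:40755457-40755476, minus strand: tgcccGGGCAAGCCTtggca
Gadd45a, chr6:67037433-67037452, minus strand: gctgaGGGCTAGCCCcatat
Sesn1, second start, chr10:41887261-41887280, plus strand: ccttcAAGCTTGTTTttgct
Trp53, chr11:69580279-69580298, plus strand: cggaaGGACTTGCCCttact
Bax, chr7:45467085-45467104, minus strand: atcccAGGCAAGCTTtgaac
The windows of Btg2, Phlda3, the first Sesn1 start and the downstream Cdkn1a start held no match. No promoter window was found for Trp53inp1.

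The arrays carry features that touch every value below. Heart identity was clear, with 6 cardiomyocyte markers at medians of 14.62 and 14.47 in knock-in and 14.51 and 14.52 in wild-type hearts on the log2 scale. Liver markers were higher in knock-in hearts: 11 of 11 measured were higher and 10 of them had an unadjusted p under 0.05. Their summed signal was 12.58 and 11.33 (log2) in knock-in replicates 1 and 2, against 10.07 and 9.48 in wild-type hearts. The range was thus 11.33 to 12.58 in knock-in and 9.48 to 10.07 in wild-type, and no marker was at 0 on this scale. The 3′ minus 5′ signal of the Gapdh control, a sign of RNA quality, was 0.54 and 0.76 in knock-in, against 0.62 and 0.61 in wild-type hearts. The part of these features in the differences below was not tested. In bulk tissue, fewer cells of a type and less RNA per cell cannot be told apart.

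Cdkn1a was lower in knock-in hearts by both of its probe sets. By probe set 1424638_at, the one with the higher mean, the values were 9.89 and 10.12 in knock-in hearts, against 10.77 and 10.90 in wild-type hearts (log2). Each knock-in array lay below each wild-type array, and the gap of the group means exceeded the spread within each pair. The SD was 0.16 in knock-in and 0.09 in wild-type hearts (n = 2 each). The log2 difference was −0.83 (standard error 0.13, 95% interval −1.14 to −0.53), which is 1.78-fold lower in knock-in hearts. The other probe set, 1421679_a_at, gave 8.08 and 8.35 in knock-in hearts, against 8.72 and 9.05 in wild-type hearts. Its groups were also apart, and its difference was −0.68 (standard error 0.16). Knock-in replicate 1, the array with the most liver signal, had the lower Cdkn1a value of its pair by both probe sets. Without that array the difference by 1424638_at was −0.72, and with any 1 array left out it lay between −0.95 and −0.72. Among 18193 genes it was the 10th lowest difference.

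**Figure D1:**
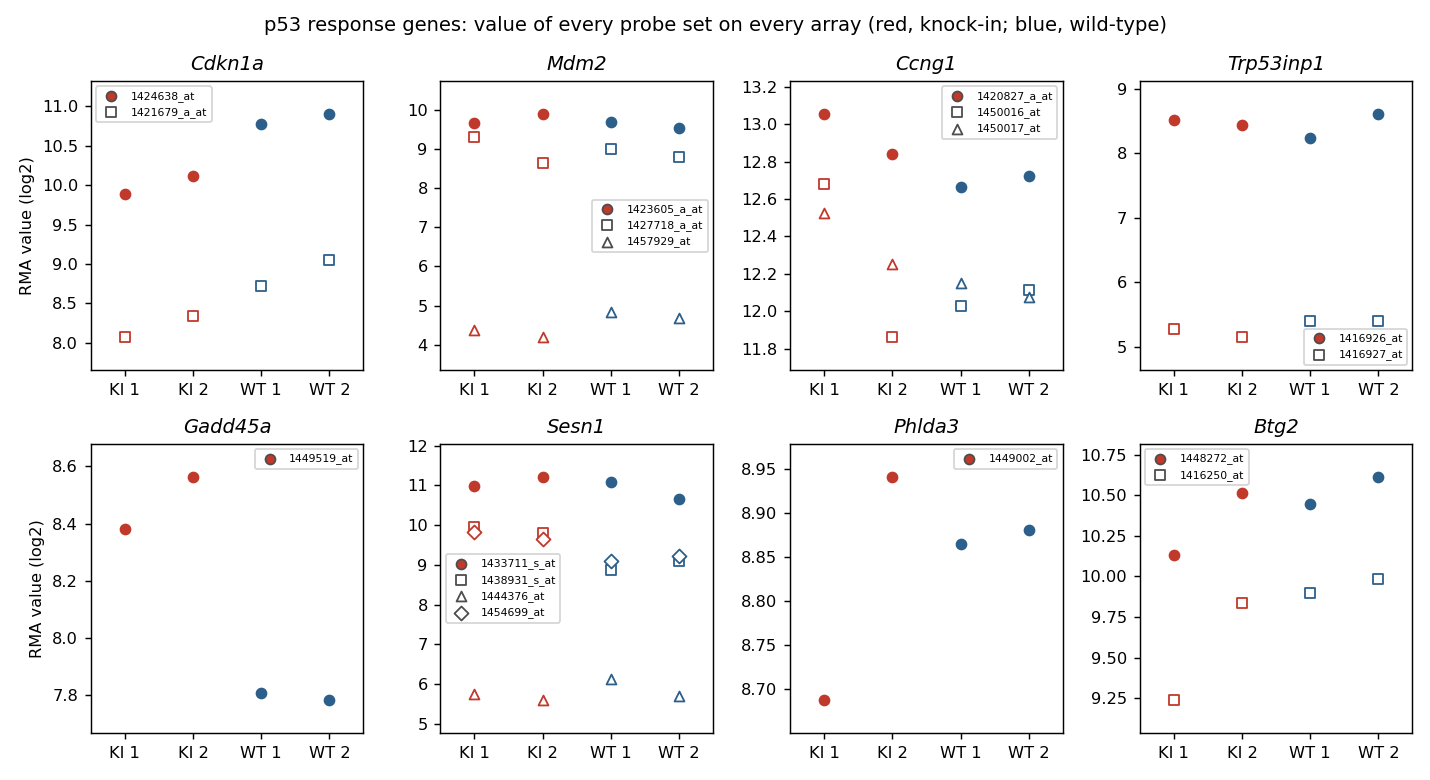
Log2 RMA values of all 18 probe sets of the 8 measured genes, 1 panel per gene with its own vertical axis, knock-in (KI, red) left of wild-type (WT, blue). Filled symbols mark the probe set with the highest mean of its gene. Both Cdkn1a probe sets lie lower on both knock-in arrays, Gadd45a lies higher, and the 4 Sesn1 probe sets do not share one pattern.

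No probe set of these genes passed the test across the whole array. Of the 18, limma called 0 at an adjusted p under 0.05, beside a background of 3 of 45037 probe sets (0.00666%). Adjusted p over all probe sets ranged from 0.261 to 0.929, and at an unadjusted p under 0.05 there were 3 higher and 3 lower. Over all probe sets that level was reached by 5.07% on the higher side and 5.62% on the lower side. In 5 of 18 probe sets each knock-in array lay above each wild-type array, and in another 5 below. These shares of 27.8% each stand beside 18.5% higher and 26.7% lower over all probe sets. Taking 1 probe set per gene, that of highest mean, knock-in values were higher for 5 genes and lower for 3. The median log2 difference was 0.11 beside −0.01 over all 18193 genes. All 8 of these probe sets had means of at least 7, and over genes with such means the median was 0.06. The split turned to 3 higher and 5 lower when the probe sets of a gene were averaged, with a median of −0.06, and to 4 and 4 after cyclic loess or quantile normalization or without wild-type replicate 1. It was 6 higher and 2 lower with the arrays shifted to 1 median or without knock-in replicate 1.

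**Figure D2:**
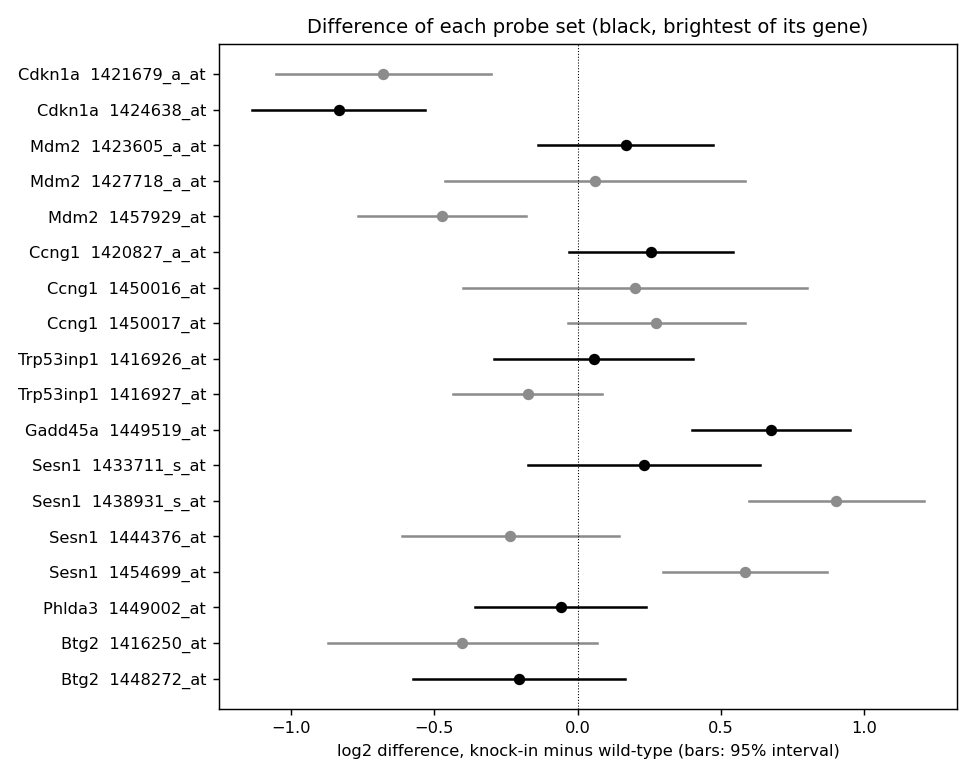
Log2 difference, knock-in minus wild-type, of each of the 18 probe sets with its 95% interval from the fit (horizontal bars). Black marks the probe set with the highest mean of a gene. The interval lies below 0 for both Cdkn1a probe sets and 1 Mdm2 probe set, and above 0 for Gadd45a and 2 Sesn1 probe sets.

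Mdm2, the ligase that targets p53 for degradation and closes the feedback loop, showed no common direction. Probe set 1423605_a_at gave 9.67 and 9.89 in knock-in hearts, against 9.69 and 9.53 in wild-type hearts, and the groups overlapped. Its difference was 0.17 with a 95% interval from −0.14 to 0.47. Probe set 1427718_a_at gave 9.30 and 8.64 in knock-in hearts, against 9.01 and 8.81 in wild-type hearts. There the 2 knock-in arrays enclosed both wild-type arrays, and the difference of 0.06 turned to −0.27 without knock-in replicate 1 and became 0.39 without knock-in replicate 2. It also turned to −0.01 after cyclic loess, −0.03 after quantile normalization and −0.04 without wild-type replicate 2. Probe set 1457929_at was lower in knock-in hearts at 4.37 and 4.20, against 4.84 and 4.68, by −0.47 (standard error 0.12). These values lie below the array medians of 6.14 to 6.23, where background makes up much of a signal.

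Ccng1, another direct p53 target, encodes cyclin G1, which brings protein phosphatase 2A to Mdm2. Probe set 1420827_a_at gave 13.05 and 12.84 in knock-in hearts, against 12.66 and 12.72 in wild-type hearts. The groups did not overlap, and the difference was 0.25 with a 95% interval from −0.03 to 0.54. Probe set 1450017_at likewise gave 12.53 and 12.25 in knock-in hearts, against 12.15 and 12.07 in wild-type hearts, a difference of 0.28. The remaining one, 1450016_at, was split, at 12.68 and 11.86 in knock-in hearts, against 12.03 and 12.12 in wild-type hearts. Its difference of 0.20 turned to −0.21 without knock-in replicate 1. Without the same array the difference was 0.15 by 1420827_a_at and 0.14 by 1450017_at. All 3 Ccng1 probe sets were thus higher on average, and all 3 were highest on knock-in replicate 1.

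Gadd45a, whose product binds PCNA and takes part in repair and growth arrest, was opposite in sign to Cdkn1a. Its single probe set gave 8.38 and 8.56 in knock-in hearts, against 7.81 and 7.78 in wild-type hearts. Both knock-in arrays were higher, and the wild-type arrays lay close together. The means were 8.47 ± 0.13 in knock-in and 7.80 ± 0.02 in wild-type hearts (SD, n = 2 each). The difference was 0.68 (standard error 0.11, 95% interval 0.40 to 0.95), or 1.60-fold. With any 1 array left out it stayed between 0.58 and 0.77.

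Sesn1 encodes sestrin 1, which restrains mTORC1 signalling and limits oxidative stress, and its 4 probe sets disagreed. Probe set 1438931_s_at gave 9.96 and 9.80 in knock-in hearts, against 8.87 and 9.08 in wild-type hearts. It had the largest difference in size among the 18 probe sets, 0.90 (standard error 0.13, 95% interval 0.60 to 1.21), or 1.87-fold. Probe set 1454699_at gave 9.83 and 9.66 in knock-in hearts, against 9.09 and 9.23 in wild-type hearts, a difference of 0.59 (standard error 0.12). In both of these the groups were fully apart. The probe set with the highest mean, 1433711_s_at, gave 10.99 and 11.21 in knock-in hearts, against 11.09 and 10.65 in wild-type hearts. Here the groups overlapped, and the difference of 0.23 shrank to 0.01 without wild-type replicate 2. The dimmest, 1444376_at, gave 5.74 and 5.61 in knock-in hearts, against 6.12 and 5.70 in wild-type hearts, below the array medians. Which stretch of the transcripts each Sesn1 probe set reads was not examined here.

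Trp53inp1, Phlda3 and Btg2 each overlapped between the groups by their probe set of highest mean. Trp53inp1, which encodes a p53-induced nuclear protein that promotes cell death and autophagy, gave 8.52 and 8.44 in knock-in hearts, against 8.24 and 8.60 in wild-type hearts. Its difference was 0.06 with a 95% interval from −0.29 to 0.40, and it turned to −0.13 without wild-type replicate 1 and became 0.24 without wild-type replicate 2. It was −0.0004 after cyclic loess and −0.02 after quantile normalization. Its other probe set lay below the array medians, at 5.28 and 5.16 in knock-in hearts, against 5.40 and 5.40 in wild-type hearts. Phlda3 encodes a small pleckstrin homology protein that competes with Akt for membrane lipids. Its values were 8.69 and 8.94 in knock-in hearts, against 8.87 and 8.88 in wild-type hearts. The knock-in arrays lay on either side of the wild-type arrays, with a difference of −0.06 and a 95% interval from −0.36 to 0.24. With the arrays shifted to 1 median it was 0.00.

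Btg2 encodes an antiproliferative protein that recruits the mRNA deadenylation complex and is also an early response gene. Probe set 1448272_at gave 10.13 and 10.51 in knock-in hearts, against 10.44 and 10.61 in wild-type hearts, with overlap. The difference was −0.21 with a 95% interval from −0.58 to 0.16. Probe set 1416250_at gave 9.24 and 9.84 in knock-in hearts, against 9.90 and 9.99 in wild-type hearts, a difference of −0.40 (standard error 0.20). Knock-in replicate 1 alone carried most of the Btg2 difference, which by 1448272_at was −0.02 without that array.

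**Figure D3:**
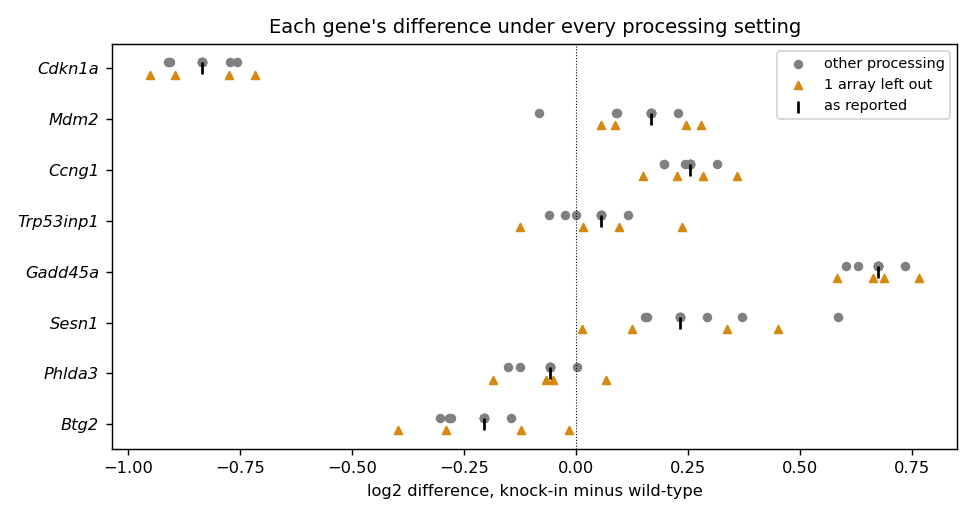
Log2 difference of each gene, knock-in minus wild-type, by the probe set of highest mean (black bar), under other processing (grey circles) and with 1 array left out (orange triangles). Cdkn1a stays between −0.95 and −0.72 and Gadd45a between 0.58 and 0.77, while Mdm2, Trp53inp1 and Phlda3 reach both sides of 0.

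The genes whose array pattern was most like that of Cdkn1a were Ddit4, 2210407C18Rik, Mid1, Cyb5a and Sh3rf2. Likeness was the root mean square difference between log2 values centred on each gene's own mean, over the 4 arrays and among 12317 genes with a mean of at least 6. It was 0.046 for Ddit4, 0.047 for 2210407C18Rik, 0.083 for Mid1, 0.10 for Cyb5a and 0.11 for Sh3rf2. Ddit4, which encodes an mTORC1 inhibitor induced by p53, hypoxia and glucocorticoids, gave 10.50 and 10.78 in knock-in hearts, against 11.38 and 11.62 in wild-type hearts. Its difference of −0.86 (standard error 0.14) lay within 1 standard error of that of Cdkn1a. With 4 arrays many genes can share such a pattern, and none of the 5 passed the test (limma adjusted p between 0.261 and 0.458).

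**Figure D4:**
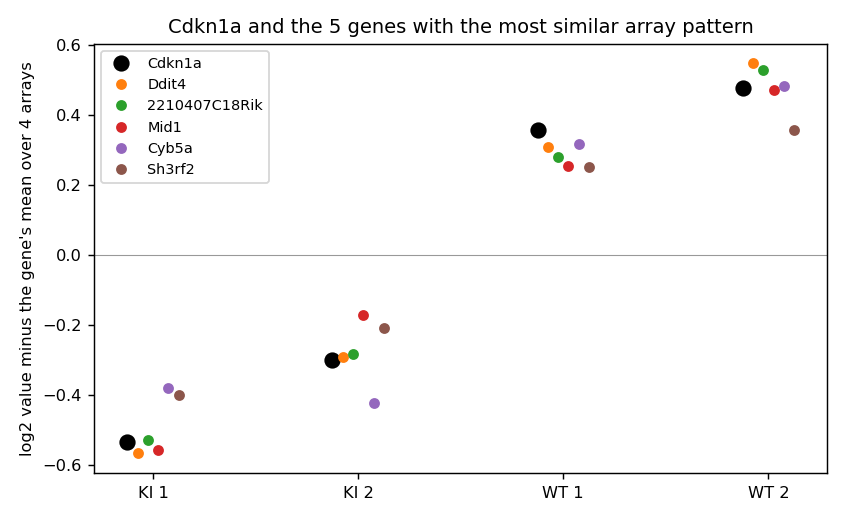
Log2 values of Cdkn1a (black) and of the 5 genes nearest to it, each minus its own mean over the 4 arrays, on knock-in (KI) and wild-type (WT) arrays. The genes were picked for this likeness, with Ddit4 at a root mean square difference of 0.046 and Sh3rf2 at 0.11.

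Wider lists covered the regulators and targets of p53. Of all 18193 genes, limma called 2 (0.011%), while an unadjusted p under 0.05 was reached by 5.45% on the higher side and 4.76% on the lower side, and no gene of the lists below was called. Knock-in values were higher for 8539 of the 18193 genes and lower for 9651. Among 27 regulators of p53, knock-in values were higher for 17 and lower for 10, and the median was 0.05. At an unadjusted p under 0.05, 4 were higher and 0 lower, or 4 of 27 genes. They were Trim24, a ubiquitin ligase for p53, at 0.57, Mdm4, the Mdm2 partner that blocks p53, at 0.57, the damage kinase gene Atr at 0.36 and the deacetylase gene Sirt1 at 0.41. Other probe sets gave −0.01 to 0.21 for Trim24, −0.39 to 0.05 for Mdm4 and −0.11 to 0.36 for Atr.

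Targets that act in arrest and repair had 11 of 19 higher and a median of 0.02, and an unadjusted p under 0.05 was reached by 1 higher gene and 0 lower ones. That gene was Plk2, a stress-induced polo-like kinase gene, at 9.07 and 9.02 in knock-in hearts, against 8.50 and 8.49 in wild-type hearts. Its difference was 0.55 (standard error 0.10, limma adjusted p = 0.416), but a second probe set gave −0.29. The repair gene Xpc lay at 0.23 and the alkyltransferase gene Mgmt at −0.30. Among 20 apoptotic targets 11 were higher, with a median of 0.03, and Ddit4 was the only one with an unadjusted p under 0.05. The death receptor gene Fas lay at −0.24, the membrane protein gene Perp at 0.24 and the nuclease gene Aen at 0.21.

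Targets in metabolism and redox control were higher in 13 of 17 cases, with a median of 0.11, while an unadjusted p under 0.05 was reached by 1 higher gene and 0 lower ones. All 17 had means of at least 7, and over all genes with such means the median was 0.06. The lipid transfer gene Pltp lay at 0.32 and Tigar, which lowers fructose 2,6-bisphosphate, at 0.26. Pank1, of coenzyme A synthesis, and the peroxidase gene Gpx1 both lay at 0.27. Other probe sets gave 0.41 for Pltp, 0.21 to 0.24 for Tigar and only 0.07 to 0.09 for Pank1. Among 19 further targets 11 were higher with a median of 0.04, and Tnfaip8 lay at 0.36, against −0.20 by its other probe set. Pltp, Pank1 and Gpx1 are also expressed in liver, whose markers were higher on the same arrays. On knock-in replicates 1 and 2, Pltp gave 10.07 and 10.04, Pank1 10.06 and 10.15 and Gpx1 11.84 and 11.79. The part of liver RNA in these values was not tested.

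**Figure D5:**
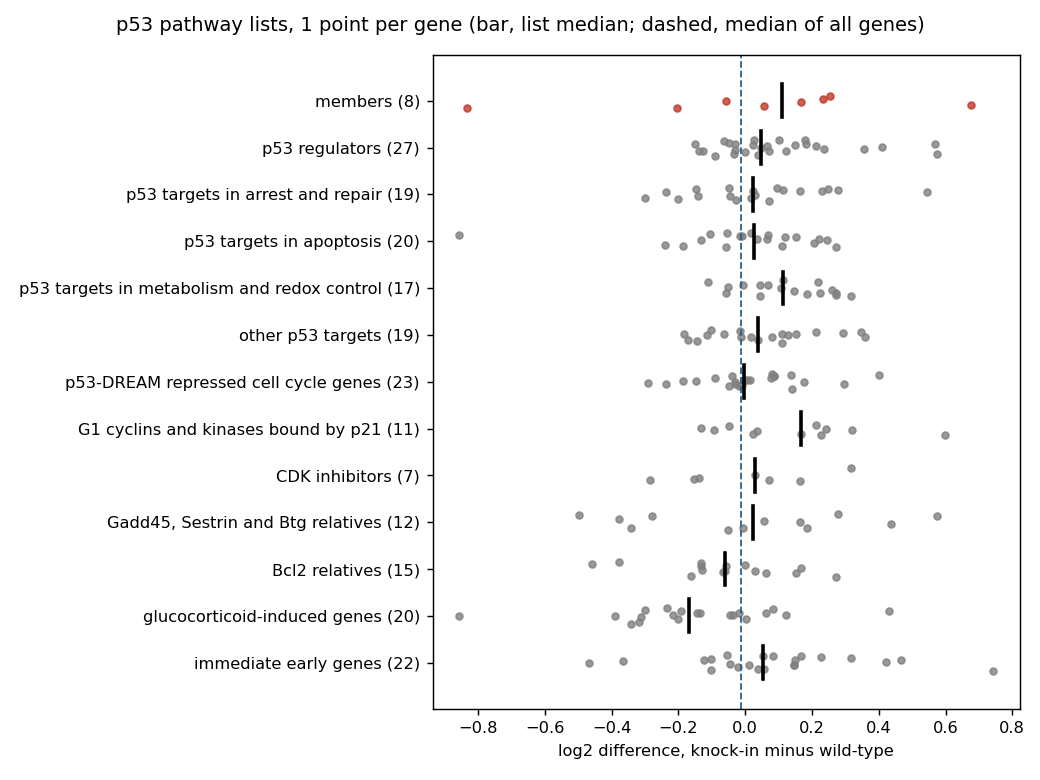
Log2 difference, knock-in minus wild-type, of each gene of the 8 measured p53 response genes (red) and of 12 related lists (grey), with gene counts in brackets, each list's median (black bar) and the median over all 18193 genes (dashed, −0.01). List medians lie between −0.17 and 0.17, and the outlying low points are Cdkn1a and, in 2 lists, Ddit4. On the high side, points reach 0.74 among the immediate early genes and 0.68 for Gadd45a. The median over genes with a mean of at least 7 was 0.06.

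Of 11 genes for G1 cyclins, their kinases and the pocket proteins they phosphorylate, 8 were higher, with a median of 0.17. That median was 0.06 without knock-in replicate 2, 0.25 without knock-in replicate 1 and 0.03 with averaged probe sets. In this list 1 higher gene and 0 lower ones reached an unadjusted p under 0.05. That gene was Rb1, at 8.84 and 8.93 in knock-in hearts, against 8.01 and 8.57 in wild-type hearts. Its difference was 0.60 (standard error 0.19, 95% interval 0.15 to 1.05), or 1.52-fold, while its second probe set differed by −0.06. Ccnd1, encoding cyclin D1, lay at 0.24 and Cdk6 at 0.32. Other probe sets gave −0.02 to 0.34 for Ccnd1 and −0.08 to 0.04 for Cdk6. Of 23 cell cycle genes that p53 represses through p21 and the DREAM complex, knock-in values were higher for 11 and lower for 12, and the median was −0.00. Mki67, a proliferation marker, gave 6.06 and 6.43 in knock-in hearts, against 5.86 and 5.82 in wild-type hearts. Top2a lay at 0.30, against −0.37 and −0.12 by its other probe sets. Cdc25c lay at −0.29, with −0.30 by its other probe set. Medians of this list, 6.03 and 6.11 in knock-in and 6.12 and 5.85 in wild-type hearts, lay below those of the arrays.

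Among the other cyclin-dependent kinase inhibitors, none came near the Cdkn1a difference. Cdkn1b, encoding p27, lay at 0.07 and Cdkn1c, encoding p57, at 0.03. Cdkn2d was higher by 0.32 and Cdkn2c lower, at −0.29, each with an unadjusted p under 0.05 and neither called. Cdkn2a, Cdkn2b and Cdkn3, the last of which encodes a phosphatase despite its name, lay between −0.15 and 0.17.

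Close relatives of these genes were listed together with Gadd45gip1, which is named for an interaction with Gadd45 and is no family member. This list showed both signs, 6 of 12 genes higher and 6 lower in knock-in hearts, and its median was 0.02. An unadjusted p under 0.05 was reached by 2 higher and 3 lower ones. The higher ones were Tob1 and Gadd45gip1. Gadd45gip1 gave 10.09 and 10.19 in knock-in hearts, against 9.95 and 9.18 in wild-type hearts. Its difference was 0.58, and its other probe set gave −0.18. Gadd45b lay at −0.50 and Gadd45g at −0.34, opposite in sign to Gadd45a at 0.68. Gadd45b gave 7.27 and 6.998 in knock-in hearts, against 7.75 and 7.52 in wild-type hearts, and its other probe sets gave −0.58 and −0.35. Gadd45g gave 7.80 and 7.87 in knock-in hearts, against 8.11 and 8.24 in wild-type hearts. Both relatives were thus lower on each knock-in array, and neither was called (limma adjusted p = 0.458 for both). The sestrin genes Sesn2 and Sesn3 lay at −0.01 and 0.19, and the Btg relatives Btg1 and Tob1 at 0.17 and 0.44. Other probe sets gave −0.36 to 0.50 for Btg1 and −0.21 for Tob1. Ccng2 lay at 0.28, Phlda1 at −0.28 and Phlda2 at −0.38.

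Of 15 relatives of Bax in the Bcl2 family, knock-in values were higher for 5 and lower for 10, and the median was −0.06. The p53-induced death genes Bbc3 and Pmaip1 lay at −0.13 and 0.15, the executioner relative Bak1 at 0.06 and the survival genes Mcl1 and Bcl2l1 at 0.03 and −0.13. Bmf was the only one with an unadjusted p under 0.05, at −0.46, against −0.12 and 0.05 by its other probe sets.

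Cdkn1a and Ddit4 are also induced by glucocorticoids, and a list of such genes, which includes Ddit4, was examined. Any part of glucocorticoids in the differences was not tested. Of 20 genes, knock-in values were higher for 5 and lower for 15, and the median was −0.17 beside −0.01 over all genes. At an unadjusted p under 0.05, 1 was higher and 4, among them Ddit4, were lower. Nfkbia, encoding the NF-κB inhibitor, gave 12.21 and 12.52 in knock-in hearts, against 12.75 and 12.76 in wild-type hearts, a difference of −0.39. Klf9 differed by −0.32, whereas the FoxO factor gene Foxo1 was higher by 0.43. The classic hormone targets Fkbp5, Tsc22d3, Sgk1 and Per1, named here after their values had been seen, lay at 0.06, −0.02, 0.00 and −0.34. Without knock-in replicate 1 the list median was −0.05.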

How the data were processed

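The members and gene lists were chosen with earlier results of these data known. The deposited values are log2 RMA summaries per probe set, which the authors made with RMA in Affymetrix Expression Console (submitters' processing notes). The labels state that normalization joined these wild-type arrays with the knock-in arrays only, and that the same wild-type scans were deposited a second time elsewhere. Neither version nor filters were stated. RMA equalizes the distribution of probe signals between arrays before probe sets are summarized, so a shift shared by most genes is largely removed. The summarized array medians still ranged from 6.14 to 6.23.

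Of 45101 probe sets, 64 controls were left out. Names came from the array annotation: 34945 tested probe sets had 1 symbol, 932 several and 9160 none listed. The probe set of highest mean stood for a gene (18193 genes), and 248 of 260 list entries were matched. Some genes stand on more than 1 list.

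Knock-in minus wild-type was fitted over 45037 probe sets with limma 3.58.1 in R 4.3.3 (lmFit, eBayes, no covariate), Benjamini-Hochberg adjusted at 0.05. The fit was tested on simulated data. The median standard error was 0.121, and 4 arrays limit the precision. P-values measure the spread between these arrays, which may be technical. All 8 members' probe sets, up to 4 genes of smallest p per list, all relatives in the family lists and 5 genes alike to Cdkn1a may be named. Alternatives covered dim probe sets, prior variance, normalization, weighted arrays, a block for the replicate number, arrays left out, the threshold and the choice of probe set. Promoter sequences are from RefSeq, GRCm38.p6.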

Additional observations from a re-analysis of the deposited data

How the results depend on the processing

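Across the settings tried, the Cdkn1a difference lay between −0.95 and −0.72, the values with 1 array left out. With 2 arrays per group, leaving 1 out cannot move a single gene by more than its replicate SD. The settings of prior variance, array weights, the block and dim probe sets left the difference at −0.83. No member passed the test in any setting that kept every array (lowest limma adjusted p 0.133). The count of probe sets called over the whole array, 3, became 1 when those with means under 7 were dropped, 11 with the arrays shifted to 1 median, 5 at an adjusted p threshold of 0.1, and 0 to 2 with 1 array left out, the 0 without knock-in replicate 1. With the replicate number as a block 4 were called and the Cdkn1a difference was −0.83. The shared numbers do not show that arrays are paired, since deviations of same-numbered arrays correlated at 0.085. The median of the 8 member genes was 0.11, became −0.059 when each gene's probe sets were averaged, and lay between 0.05 and 0.11 with 1 array left out. With arrays shifted to 1 median the p53 regulators' median was 0.11 and that of metabolic targets 0.17. Metabolic targets lay at 0.057 after cyclic loess, 0.062 after quantile normalization, 0.067 with averaged probe sets and 0.10 to 0.16 with 1 array left out. The relatives' list turned to −0.10 with averaged probe sets. The glucocorticoid list lay between −0.24 and −0.055 with 1 array left out, the −0.055 without knock-in replicate 1. In these cases the cause was not tested. In all, 291 of the recomputed values moved by less than the replicate spread or, for counts, by at most 1.5 times. Another 17 moved by more, and 1 count became weaker. Many of the 291 were fixed in advance for the reasons given for Cdkn1a, so this number does not measure robustness.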

Other observations

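Immediate early genes, which are induced within minutes of many stimuli, had 14 of 22 members higher and 8 lower in knock-in hearts, with a median log2 difference of 0.05. At an unadjusted p under 0.05, 2 were higher and 1 lower, and limma called 0. Klf6 gave 8.54 and 8.65 in knock-in hearts, against 8.05 and 8.21 in wild-type hearts, and Fosl2 differed by 0.32. Fosl1 lay at −0.37 and Ccn1, encoding a matricellular protein, at −0.47, with both knock-in values (8.54 and 8.56) below the wild-type values (8.72 and 9.32). With 1 array left out the median of the list lay between −0.09 and 0.21.

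Of the other cell type markers, 3 of 3 lymphocyte genes were lower, with Cd79a at −0.35, while 4 of 4 macrophage and 4 of 4 fibroblast genes were higher, with medians of 0.12 and 0.17. Endothelial genes had 3 of 4 higher, with Vwf at 0.48, and neutrophil genes 2 of 4.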
